A study of Homo sapiens with 6 samples.

Results

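The subject is the 3 genes that encode the GA-binding protein (GABP), namely GABPA, GABPB1 and GABPB2, and the sites at which the GABPA protein itself was found there. A peak was taken when its summit lay inside, or within 5 kb of, the RefSeq span of a subunit gene. This gave 7 of the 8541 peaks in 3 lists, 3 in parental cells, 3 in the ROSA26 knockout and 1 in the GABPB1 knockout. The 3 genes are among 19970 protein-coding genes of the table used.

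GABPA ChIP-seq was done in A-375, an established human melanoma line, with 1 antibody and 1 ChIP library per condition. The conditions were unedited parental cells, a line knocked out at ROSA26 (often used as a neutral target), and cells in which exon 2 of the B1 subunit was knocked out and TERT, the catalytic subunit of telomerase, was then knocked in. Knockout lines came from Cas9-transfected single cells sorted for growth as clones, so an edited line stands for its clone as well as for its edit. No sample separates the B1 knockout from the TERT knock-in or the clone, and the identity of the cells cannot be checked from peak lists.

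GABP works as a complex. GABPA, an ETS family protein, binds DNA at sites built around GGAA, and its partner, the B subunit made from GABPB1 or from GABPB2, supplies the activation domain and the nuclear localisation signal. B subunits can join a pair of GABPA-B units into a tetramer. GABP is known as a regulator of housekeeping and mitochondrial genes and, in tumours with a mutated TERT promoter, of TERT.

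The peak at GABPA lay over the starts of 2 genes, GABPA and ATP5PF, a subunit of the mitochondrial ATP synthase that is read in the opposite direction. The motif searched was CCGGAAG, a common form of the GABPA site, on both strands. The RefSeq promoter window of GABPA (250 bases before the start to 50 after it, GRCh38.p14, chr21:25734722-25735021, plus strand) held 1 match, and a second match lay just outside the window, within that of ATP5PF. Both are shown because the summits of the 3 libraries fall between them. Capitals mark the motif, which lies on the minus strand and so reads CTTCCGG here. The second stretch is chr21:25735067-25735096, plus strand, read as the reverse complement of the ATP5PF window.

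GABPA promoter: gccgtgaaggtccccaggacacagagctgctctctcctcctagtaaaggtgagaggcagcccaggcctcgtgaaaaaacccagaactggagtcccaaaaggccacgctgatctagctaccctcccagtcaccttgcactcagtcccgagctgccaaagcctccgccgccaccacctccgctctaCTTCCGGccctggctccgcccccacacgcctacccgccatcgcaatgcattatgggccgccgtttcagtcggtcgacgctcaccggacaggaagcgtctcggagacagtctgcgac
Second match: gagggtaagtgCTTCCGGgtcccctggcac

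The promoter window of GABPB1 (chr15:50355149-50355448, minus strand, shown in the direction of the gene) held no CCGGAAG. It is shown because the control peaks cover the gene's start, here with the shorter core GGAA, or its complement TTCC, in capitals.

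GABPB1 promoter: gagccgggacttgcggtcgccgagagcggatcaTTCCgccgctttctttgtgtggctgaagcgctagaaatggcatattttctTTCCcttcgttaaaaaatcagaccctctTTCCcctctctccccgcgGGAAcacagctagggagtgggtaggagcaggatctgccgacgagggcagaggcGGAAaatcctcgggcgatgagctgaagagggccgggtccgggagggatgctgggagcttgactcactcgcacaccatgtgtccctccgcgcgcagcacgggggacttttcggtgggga

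Each subunit gene carried a single peak in both control libraries, and the GABPA gene alone kept it in the B1 knockout list. A protein-coding gene had a summit inside or within 5 kb in 19.7% of cases in parental, 23.7% in ROSA26 and 11.8% in knockout cells. Of the genes with a summit in both controls, 40.0% had none in the knockout list (95% exact interval 38.5 to 41.6), against 2 of the 3 subunit genes. With 3 genes this count cannot be told from the background. A single peak per gene was also the rule elsewhere, at 93.5% (parental), 91.7% (ROSA26) and 96.0% (knockout) of marked genes. All 7 summits lay inside the gene spans, and no further peak lay within 10 kb.

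**Figure D1:**
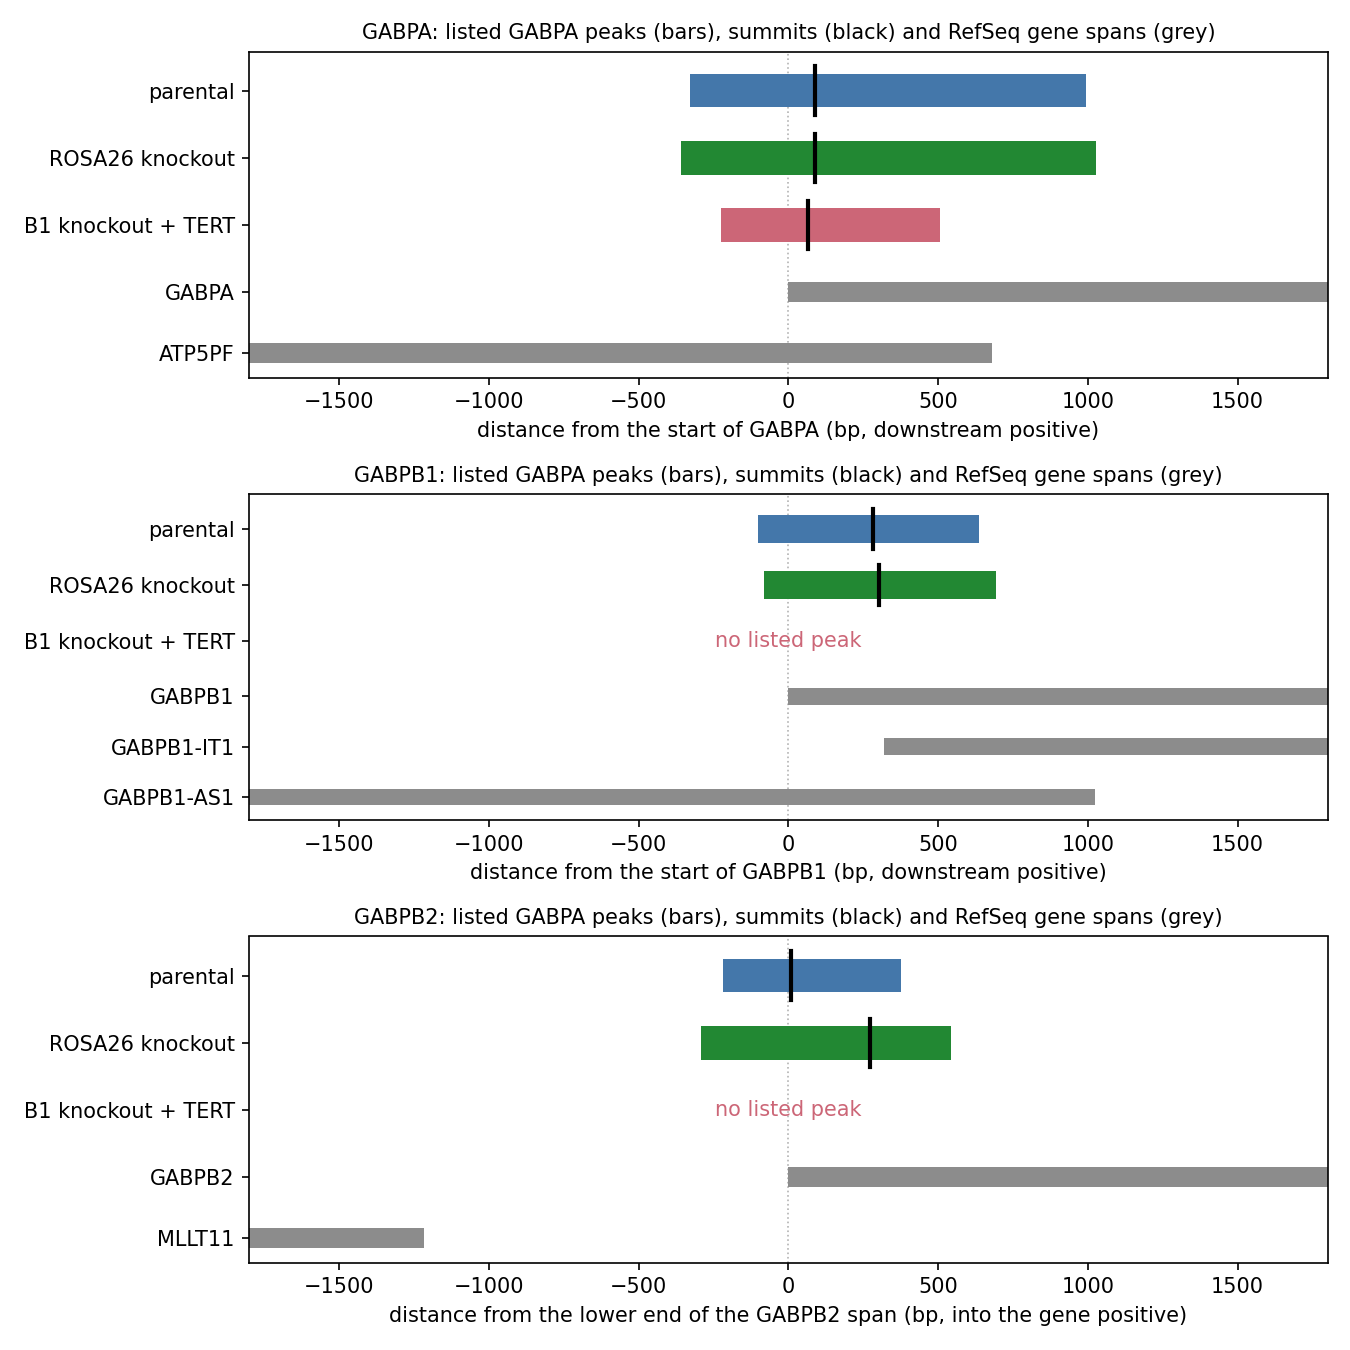
Peaks listed at GABPA, GABPB1 and GABPB2 in the 3 libraries, plotted by distance in bp from the start of the gene (GABPA, GABPB1) or from the lower end of its span (GABPB2). Coloured bars are peaks, black lines their summits and grey bars gene spans, cut at the plot's edges. The GABPA peak is listed in all 3 libraries and is shorter on its right side in the knockout, and the other genes have no knockout peak.

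The subunit that contacts DNA is encoded by GABPA (gene ID 2551, chromosome 21, 25734972 to 25772460). Its peak ran from 25734644 to 25735965 in the parental list, from 25734614 to 25735999 in the ROSA26 list and from 25734746 to 25735478 in the knockout list. The summits, at 25735062, 25735061 and 25735039, lay 90, 89 and 67 bp downstream of the gene's start. Both control summits were thus at the same place within 1 bp, and the knockout summit lay 23 bp from the parental one. Across all 1628 parental peaks with a knockout peak the median distance was 19 bp.

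The same summits sat on a start of ATP5PF. RefSeq's promoter table gives this gene 2 starts, at 25735054 and 25734904. The parental summit was 8 bp and the ROSA26 summit 7 bp upstream of the first of them, and the knockout summit 15 bp downstream. The peak can therefore not be assigned to GABPA rather than to ATP5PF.

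The 2 CCGGAAG matches flank the summits. The match in the GABPA window covers 25734906 to 25734912, with its lower base 66 bp before the gene's start. The other covers 25735078 to 25735084. Measured from the middle of the second match, the parental summit was 19 bp, the ROSA26 summit 20 bp and the knockout summit 42 bp to the left. The distances from the first match were 153, 152 and 130 bp to the right. Of these 2 matches, the second was the nearer to all 3 summits. The shorter core GGAA, with 2 matches in the GABPA window, was not measured against the summits. CCGGAAG was present in 12.8% of 22131 protein-coding promoter windows (12.4 to 13.3), and in 64.2% (62.3 to 66.1) of the 2428 windows that hold a parental summit, 60.9% (59.1 to 62.7) of 2811 with a ROSA26 summit and 71.0% (68.6 to 73.2) of 1515 with a knockout summit. The printed GABPA window is not among those holding a summit. The summits lay 41 bp (parental), 40 bp (ROSA26) and 18 bp (knockout) outside it. The window at the second start of ATP5PF held both matches, and 2.29% of all windows held 2 or more. A match is a run of letters and not a measured site.

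The GABPA peak was strong in each list. Its fold enrichment, the authors' own value for each peak, was 13.2 (parental), 14.3 (ROSA26) and 12.5 (knockout). These values stood above 91.7, 91.7 and 93.2% of the peaks of their own list. The −log10 p was 142, 196 and 94.4. By this value the peak was number 463 of 3024, number 474 of 3857 and number 202 of 1660. The lists differ in length, and the knockout list lacks most of the weakest control-shared peaks. These places are therefore not compared between libraries.

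The number of reads at each summit was solved from fold and −log10 p, because the lists hold no totals. A scale factor inferred for each library was used in this. The GABPA summit had 218 reads in the parental library (95% Poisson interval 190 to 249), 250 in the ROSA26 library (220 to 283) and 136 in the knockout library (114 to 161). These intervals cover counting error only. The background pileup of the whole library, which grows with read depth and fragment length, was 15.4, 14.2 and 9.86 reads in the same order. Brought to the knockout's background, the parental summit would hold 139 reads and the ROSA26 summit 173. The first lies inside the counting interval of the 136 reads and the second above it. The scaled values carry counting error of their own, which this comparison leaves out, so it shows no difference between the controls. The knockout summit had 62.4% of the parental reads and 54.4% of the ROSA26 reads. Over all shared peaks the medians were 46.1 and 40.3%, so the GABPA peak held a higher share of its reads than 88.6 and 85.9% of the shared peaks.

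**Figure D2:**
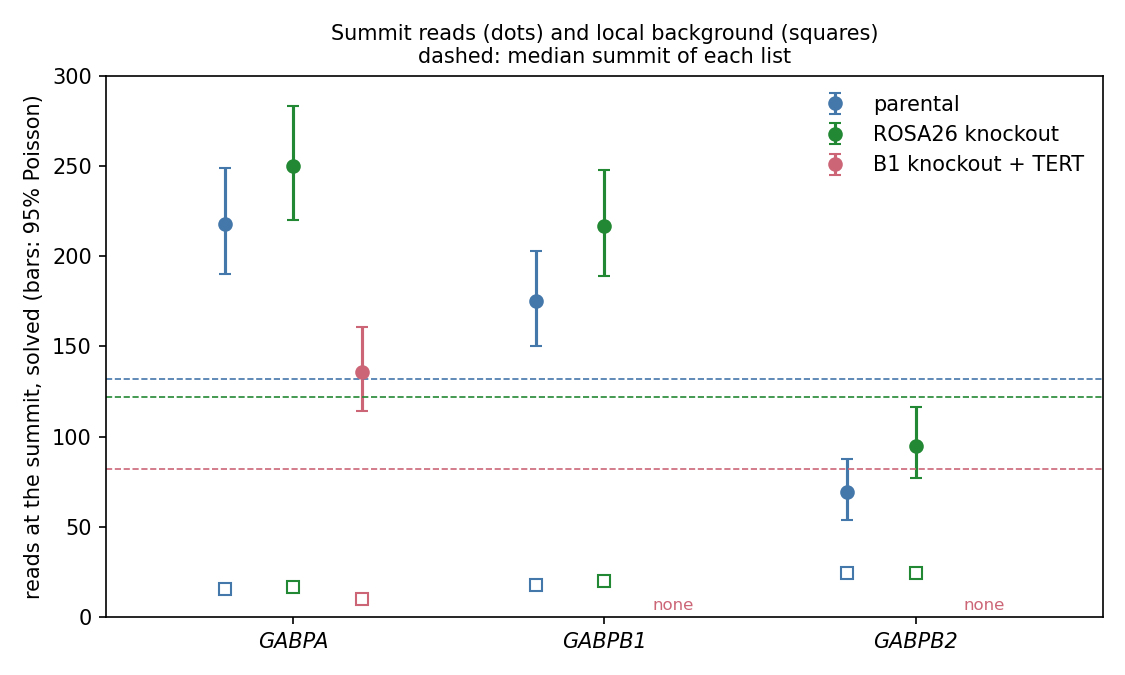
Reads at the summit of each subunit gene's peak (vertical axis, reads solved from the deposited values) in the 3 libraries, with 95% Poisson intervals. Open squares are the local background and dashed lines the median summit of each list. GABPA stands above the dashed line of its own library in all 3, GABPB1 in both controls and GABPB2 in neither, and "none" marks a gene with no listed peak.

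The GABPA peak was also unusually wide in the controls. It measured 1322 bp in the parental list, where 3 of 3024 peaks were wider and the median was 585 bp. It measured 1386 bp in the ROSA26 list, where 10 of 3857 were wider and the median was 636 bp. The knockout peak was 733 bp wide, with 95 of 1660 peaks wider and a median of 513 bp. The knockout peak had 55.4% of the parental width, against a median of 78.5% over the 1628 shared peaks, which put it at percentile 4.88 of the pairs.

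Most of the narrowing of the GABPA peak was on the right side, towards the body of GABPA and the outer end of ATP5PF. The left edge of the knockout peak lay 102 bp inside the parental one and the right edge 487 bp inside it. The medians over shared peaks were 69 and 68 bp. The right edge of GABPA stood at percentile 0.28 of the pairs, near the farthest inward. This rank is of shifts in bp over pairs of all widths, and a narrower peak has less room to shift. Edges were not compared among peaks of like width. Against ROSA26 the shifts were 132 bp on the left and 521 bp on the right. The stretch listed in both controls but not in the knockout contains the outer end of the ATP5PF span at 25735653. The lists give 1 summit per peak, so whether the wide control peaks hold a second summit on that side was not tested, and neither was the part played by the lower background pileup of the knockout library.

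**Figure D3:**
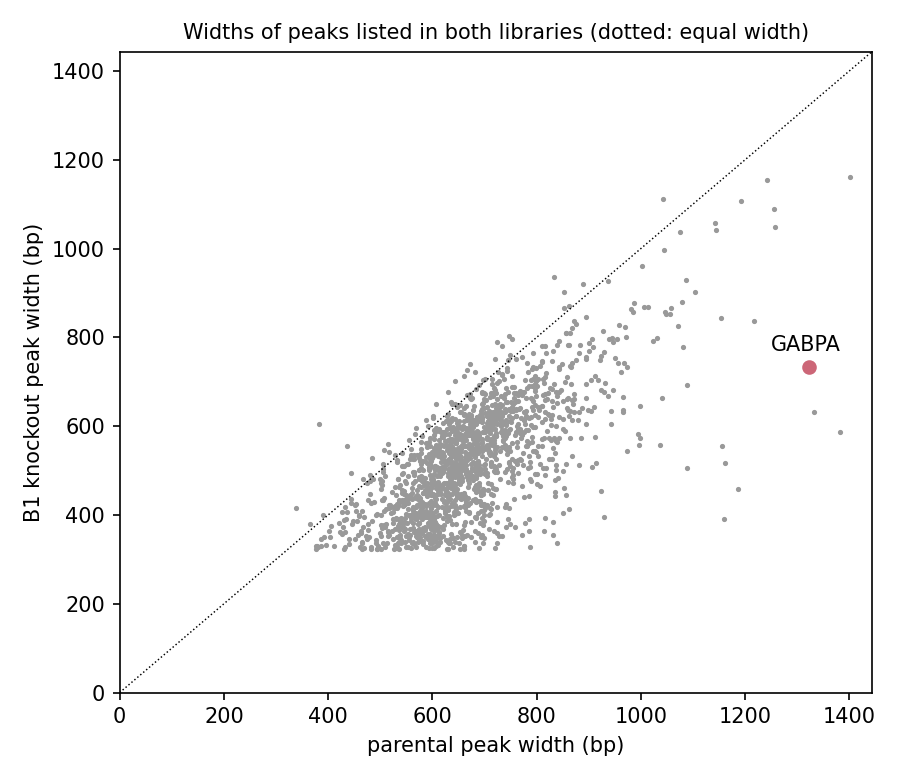
Width of each parental peak (horizontal axis, bp) against the width of the knockout peak that overlaps it (vertical axis, bp) for 1628 pairs, with the GABPA peak in colour and a dotted line at equal width. GABPA falls from 1322 to 733 bp and lies well below the dotted line.

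The B1 subunit, the target of the knockout, is encoded by GABPB1 (gene ID 2553, chromosome 15, 50275389 to 50355198, minus strand). Its peak covered 50354562 to 50355298 in parental cells and 50354504 to 50355279 in the ROSA26 knockout, 737 and 776 bp wide, and no knockout peak overlapped it. The summits at 50354917 and 50354897, 20 bp apart, lay 281 and 301 bp downstream of the gene's start. Both control libraries thus placed the site within the first part of the transcribed region. Over the 3286 protein-coding starts with a parental summit within 1 kb the median summit was 52 bp upstream of the start, and 94.4% of them lay less far downstream than that of GABPB1.

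A pair of noncoding genes adjoin this site. The summits lay inside GABPB1-AS1 (50354174 to 50358312), an antisense RNA gene, 743 and 723 bp downstream of its start. They lay 38 and 18 bp above the higher end of the GABPB1-IT1 span (50348936 to 50354879), a gene whose direction was not used here. The summits are therefore inside 2 overlapping genes of opposite direction, and the peak itself also reaches past the start of GABPB1 and into GABPB1-IT1. The printed promoter window reaches only the outer part of the peak. The parental peak covered 150 and the ROSA26 peak 131 of its 300 bases, and the summits lay 232 and 252 bp outside it. Of its 5 GGAA cores 1, whose first base is 68 bp before the start, lay inside the control peaks. GGAA occurs in 95.2% of all protein-coding windows. The sequence under the summit was not used here, so the letters shown say nothing about it.

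The GABPB1 peak was above the middle of both control lists. Its fold was 9.39 (parental) and 10.3 (ROSA26), above 74.0 and 77.0% of the peaks of the same list. The −log10 p was 93.3 and 141. The summit had 175 reads in the parental library (150 to 203) and 217 in the ROSA26 library (189 to 248), over local backgrounds of 17.6 and 20.2 reads. It was thus well above the median summit of each list, 132 and 122 reads.

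Few control peaks of this strength were missing from the knockout list. Among all 2969 parental peaks with a ROSA26 peak, 45.2% had no knockout peak (43.4 to 47.0), and of the 3 subunit gene peaks 2 had none. In 10 equal bins of parental fold, the bin that holds GABPB1 (folds of 8.88 to 10.6) had 297 peaks, of which 15 lacked a knockout peak (5.05%, 2.85 to 8.19). GABPB1 was 1 of these 15. In the bin of ROSA26 fold that holds it, 21 of 297 were missing (7.07%, 4.43 to 10.6). The other 282 peaks of the parental bin had knockout summits of 38 to 208 reads with a median of 87, and a −log10 p of 9.83 to 133 with a median of 39.1. These 282 were picked for being in the knockout list, so their range only shows what was listed. Whether a detection limit played a part at GABPB1 was not tested.

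At the knockout's background the GABPB1 summits would hold 112 and 150 reads, with a −log10 p of 70.2 and 109.6. The scaled values stand above 79.3 and 90.4% of the knockout list. With each peak's own local background scaled instead, they were 64.7 and 90.1. Among the 219 control-shared peaks whose value on that scale lay within 10% of the parental GABPB1 peak, 20 had no knockout peak (9.13%, 5.67 to 13.8). The scaling sets knockout reads at 64.0% of parental and 69.3% of ROSA26 reads. Peaks shared with the knockout held medians of only 46.1 and 40.3%. The scaled reads and −log10 p thus lie above what a typical shared peak showed in the knockout. A position without a listed peak is not shown to be unbound. The positions of the guides and of exon 2 were not used here, so a part played by the edit itself at this locus was not tested, and this absence is no check of the knockout.

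**Figure D4:**
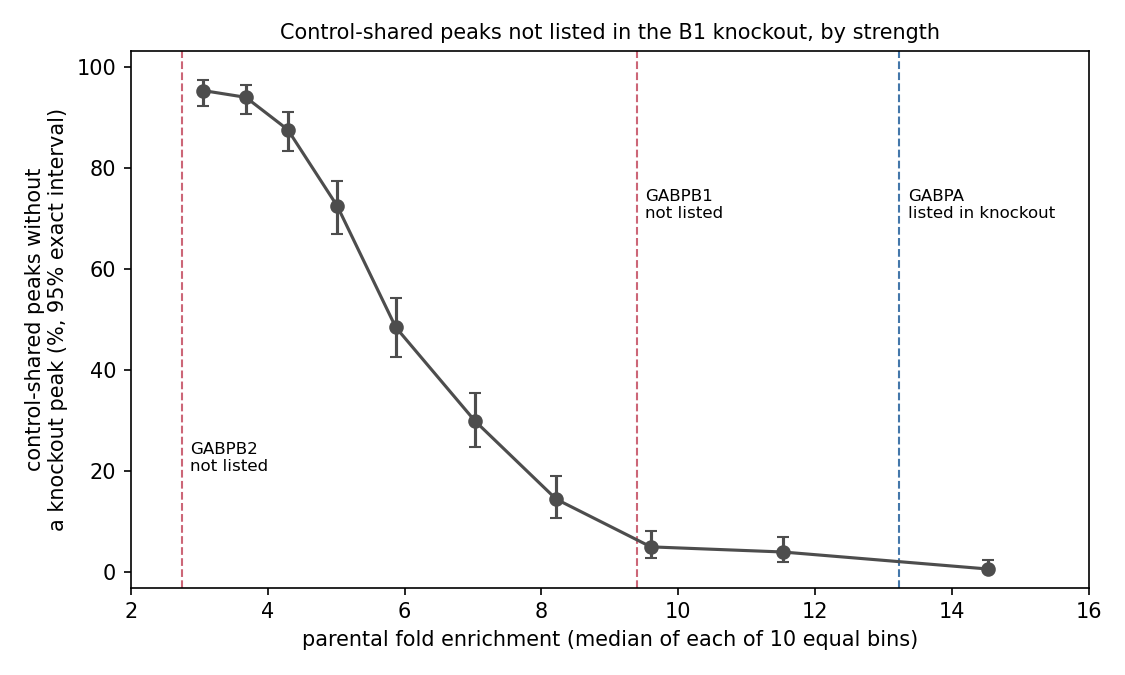
Share of control-shared peaks without a knockout peak (vertical axis, percent with 95% exact intervals) in 10 equal bins of parental fold (horizontal axis, median fold of the bin). Vertical dashed lines mark the parental fold of the subunit genes' own peaks: GABPB2 at 2.74, in a bin with 95.3% missing, GABPB1 at 9.39, with 5.05% missing, and GABPA at 13.2, with 0.673% missing.

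GABPA fell in the strongest bin. Its bin of parental fold (12.8 to 23.6) had 297 peaks, of which 2 had no knockout peak (0.673%, 0.082 to 2.41). The 295 with a knockout peak, GABPA among them, had a median of 152 knockout reads, close to the 136 of GABPA. They held a median of 51.6% of their parental reads, against 62.4% for GABPA.

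The other B subunit is encoded by GABPB2 (gene ID 126626, chromosome 1, 151070761 to 151125542). Its peak was weak in both controls and absent from the knockout list. It covered 151070542 to 151071137 (596 bp) in parental cells and 151070470 to 151071303 (834 bp) in the ROSA26 knockout. The fold was 2.74 and 3.78, above 2.50 and 25.8% of the peaks of the same list, and the −log10 p was 11.5 and 27.3. The summit had 69 reads in the parental library (53.7 to 87.3) and 95 in the ROSA26 library (76.9 to 116). The local background was 24.4 reads in both, which is 158 and 171% of the library's own, the highest of the 3 loci. Of all peaks, 81.1% (parental) and 84.2% (ROSA26) had a local background above the library's own. It was higher than that of GABPB2 at 457 of 3024 and 676 of 3857 peaks.

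The control libraries placed the GABPB2 summit differently. The parental summit at 151070768 lay 7 bp inside the lower end of the span and the ROSA26 summit at 151071035 lay 274 bp inside it. This distance of 267 bp was reached or passed by 0.370% of the 2969 pairs, whose median was 17 bp. That share is over pairs of all strengths. Summit distances were not compared among peaks as weak as this, so different sites in the controls are not shown. The ROSA26 peak contained the whole parental peak. The nearest other gene was MLLT11, whose span ended 1224 and 1491 bp from the summits. The direction and promoter sequence of GABPB2 were not used here.

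Control peaks as weak as this were rarely listed in the knockout. In the bin of GABPB2 (folds of 2.05 to 3.45) 282 of 296 sites had none (95.3%, 92.2 to 97.4). Brought to the knockout's background, the summits would hold 44.2 and 65.9 reads with a −log10 p of 14.0 and 29.1. With the local background scaled these were 8.08 and 17.6, and of 73 sites within 10% of the parental value 72 were not in the knockout list (98.6%, 92.6 to 99.97).

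The nearest other peaks lay between 40.5 kb and several Mb from the subunit genes. At GABPA the next control peak on the lower side was 127 kb from the gene, 308 bp (parental) and 318 bp (ROSA26) from an end of MRPL39, a mitochondrial ribosomal protein gene. It was weak (folds 3.63 and 3.06) and not listed in the knockout. On the higher side the next peak in all 3 lists was at LTN1, a ubiquitin ligase of ribosome quality control, 3220.5 kb from the gene. At GABPB1 the next peaks were at DTWD1 and FAM227B, 654 kb below (listed in all 3), and at SPPL2A, an intramembrane protease gene 410.5 kb above, in the controls. The next knockout peak on that side was at ARPP19, 2214 kb from GABPB1. At GABPB2 the next control peaks were at MINDY1 and PRUNE1, 62.4 kb below, and at SCNM1 and LYSMD1, 40.5 kb above, and of these the second was listed in the knockout (fold 2.66).

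Genes of proteins known to work with or act on GABP were looked at in the same way. Of 22 such genes, 9 had a parental summit inside or within 5 kb, 10 a ROSA26 and 3 a knockout summit, beside 19.7, 23.7 and 11.8% of all protein-coding genes, and 12 had none in any list. Of the 9 marked in both controls 3 kept a peak and 6 did not, against 40.0% without one over all genes. With 9 genes this count cannot be told from that share. HCFC1, a chromatin coregulator that binds the B1 subunit, had the highest parental fold of the list. Its parental summit lay 570 bp and its ROSA26 summit 578 bp inside the gene, with folds of 10.8 and 11.0, and no knockout peak was listed. In its bin of parental fold 12 of 297 control-shared peaks were missing (4.04%, 2.11 to 6.95).

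The partner genes with a knockout peak were SP3, THAP11 and ZNF143, which encode promoter-binding factors. THAP11 had 2 peaks in each control list and 1 in the knockout list. Parental folds were 8.88 (SP3), 7.69 (THAP11, 1 of its 2 peaks) and 6.89 (ZNF143). Besides HCFC1, those without were EP300, an acetyltransferase (parental fold 4.37), SIRT7, a deacetylase that acts on B1 (4.26), the PGC-1-related coactivator PPRC1 (5.44), the zinc finger factor YY1 (3.93) and the Hippo pathway kinase LATS1 (3.63). Their bins lacked a knockout peak at 72.4 to 93.9% of sites. The SIRT7 peak is shared with MAFG, and the PPRC1 peak lies outside that gene, within 1 kb of an end of NOLC1. SP1 had a peak in the ROSA26 list alone (fold 2.91). PPARGC1A, NRF1, CREB1, ATF1 and E2F1 were among the 12 genes with none.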

How the data were processed

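GABPA ChIP-seq peak lists of 3 libraries were used, 1 per condition, and the 3 input samples were not analysed here. Reads were processed with Bowtie2, SAMtools and MACS2 on hg38, per the submitters' processing notes. Not given in the sources used here are versions, thresholds and the role of the input. Deposited lists, called per sample, give a fold (the ratio of summit pileup to local background), the −log10 of the p-value and q-value, and a score that is 10 times the −log10 q-value. The authors' fold was compared within a list only.

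Summit reads and background were solved from each peak's −log10 p and fold by the MACS2 formula (tolerance 0.01 in −log10 p). The formula adds 1 to both pileup and background before taking their ratio. A scale factor per library was first inferred from some of its peaks. It was 0.860 (parental), 1.0 (ROSA26) and 0.924 (knockout), and pileups were divided by it to give reads. All peaks were solved, as were 1800 of 1800 peaks in 3 simulated lists. The simulated lists were made with the same formula, so they check the solving and not whether the deposited values follow it. Scaling multiplied a summit by the ratio of library backgrounds and used the knockout's background. Lists held 3024 parental, 3857 ROSA26 and 1660 knockout peaks, with shared peaks overlapping by at least 1 bp. Gene spans, starts and promoter sequences are RefSeq GRCh38.p14, and GABPA and GABPB1 were matched in the promoter table. Coordinates are 1-based. Intervals are exact Clopper-Pearson or Poisson at 95%, for counting error only, since reads carry no molecular identifiers. With 1 library per condition no test was made. Members and gene lists were chosen with earlier results of these data known. The genes named are the 3 subunit genes, every gene within 5 kb of their summits, and the partner genes that had a peak in both controls and were among the 5 highest by parental fold or had no knockout peak. The flanking-peak genes, and the partner genes named for having a peak in 1 list or in none, were chosen after their values were seen. Python 3.11.15, SciPy 1.17.1 and pandas 2.3.3 were used.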

Additional observations from a re-analysis of the deposited data

How the results depend on the processing

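Of 37 alternative values 14 moved and 23 did not, where a count had to stay within 1.5 times, a share within its 95% interval, and reads or −log10 p at the same 3 digits. No alternative gave GABPB1 a knockout peak, and none could. The nearest knockout peak lay 654 kb from the gene, and the alternatives reached 10 kb at most or shortened the lists. The knockout peak of GABPA stayed listed, but its −log10 q of 89.5 put it out of reach of the stricter cuts. Equal length kept the whole knockout list. These settings are therefore no check of either result. With a −log10 q of at least 10 or 20, GABPB2 lost its parental peak, and at equal list length (1660 peaks) it lost both. Equal length lowered the share of control-shared peaks without a knockout peak from 45.2 to 11.8%. In the bin of GABPA the share was 4.04% with bins of ROSA26 fold and 2.56% with 4 bins, and with 4 bins that of GABPB1 was 19.1%, a broader range of folds. With summits within 1 kb of a span, 17.2% (parental), 20.8% (ROSA26) and 10.2% (knockout) of genes were marked. With the local background scaled, −log10 p at the knockout's background was 127 for GABPA in ROSA26, 64.7 and 90.1 for GABPB1 and 8.08 and 17.6 for GABPB2. The motif GGAA gave 2 matches in the GABPA and 5 in the GABPB1 window. Requiring summits within 200 bp left GABPB2 out of the control-shared peaks. Matches under the peaks were not counted beyond the promoter windows. No paired analysis was possible because each condition has 1 ChIP library. That single library, and the lower background of the knockout, limit what an unlisted peak shows.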

Other observations

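The surroundings of each subunit gene were described after the peaks at the genes had been seen. Within 1 Mb of GABPB2 lay 13 other control-shared peaks, of which 6 had a knockout peak. Those with one were at MRPS21, PRPF3, TARS2, SCNM1, PSMB4 and THEM4, with parental folds of 5.48 to 9.49. Those without one were at APH1A, MCL1, SETDB1, MINDY1, VPS72, PSMD4 and ZNF687, with folds of 3.03 to 4.98. The GABPB2 peak, at 2.74, was weaker than each of the 13. Within 1 Mb of GABPB1 lay 2 others. The peak at DTWD1 and FAM227B (parental fold 6.11) had a knockout peak and the one at SPPL2A (6.99) did not, although the latter was the stronger. Over the whole chromosome 15, 44 of 98 sites listed in both controls had no knockout peak (44.9%, 34.8 to 55.3). On chromosome 1 it was 128 of 290 (44.1%, 38.3 to 50.1) and on chromosome 21 it was 8 of 22 (36.4%, 17.2 to 59.3), and all 3 intervals include the 45.2% over all control-shared peaks.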
